A study of Mus musculus with 4 samples.

Results

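Interferon-induced genes are switched on when a cell senses interferon, and they were followed here as a set of 35 genes, 20 classed as type I interferon targets and 15 as interferon gamma targets. The members were taken as every probe set annotated with a member's symbol alone, which gave 49 probe sets for 33 of the 35 genes, out of 18193 named genes on the array. Isg15, whose probe set carries a second symbol, and Ifi44, for which no probe set is named, have no level here. Both enter only the promoter search. For a gene with several probe sets the one shown was selected on its mean level, so the size of that level is a description. The genes were chosen with earlier results of these arrays known, and their pattern over the samples has no test either. The division into the 2 classes follows general knowledge of these genes.

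The samples were 4 adult ureters of male mice on the FVB/N strain at Theiler stage 28, all carrying the SMGA/EGFP transgene. The transgene reports the smooth muscle gamma actin gene Actg2, and its green fluorescence guided the dissection of the ureter, the muscular tube that drains the kidney into the bladder. The samples were not pooled, were amplified in 2 rounds and were hybridised to Affymetrix MOE430 arrays. They form 1 untreated group, so no contrast between groups exists. No label tells whether the samples are separate animals. The error behind the p-values therefore comes only from the spread between these samples, which may be technical. The names replicate 1 to replicate 4 carry no order.

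Type I interferons (the alpha and beta families) signal through Ifnar1 and Ifnar2 to the kinases Jak1 and Tyk2, which activate a complex that includes Stat2 and Irf9. That complex binds the interferon-stimulated response element before genes for antiviral proteins. Interferon gamma, made mainly by T cells and natural killer cells, signals through Ifngr1 and Ifngr2 and the kinases Jak1 and Jak2, and its response acts through the gamma-activated site. Its targets include the immunity-related and guanylate-binding GTPases and the machinery that presents peptides on MHC class I. Many members respond to both kinds of interferon, so the division is one of emphasis.

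In the adult ureters 28 of the 33 measured members (84.8%) were above background, 15 of 18 type I targets and 13 of 15 interferon gamma targets. Among all named genes 57.9% were above background. Levels are log2(intensity + 16), so a difference of 1 is about a doubling of intensity for bright probe sets and more than a doubling for dim ones. Background was judged per probe set with limma's moderated one-sided test of the mean over the arrays' own thresholds, at a Benjamini-Hochberg adjusted p under 0.05, and 1 passing probe set sufficed for a gene. The thresholds, taken from probe sets for chemosensory receptors, were 7.247, 6.991, 7.566 and 7.359 in replicates 1 to 4. The 5 members that did not pass were Mx1, Mx2, Stat2, Ido1 and Socs1. Ifit2, Gbp3 and Xaf1 lost their call without replicate 2 (adjusted p = 0.0858, 0.128 and 0.0754 in limma's fit), Ifit2 and Gbp3 also without replicate 1 (0.0716 and 0.0819), and Gbp3 without replicate 4 (0.0649).

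Most members had their highest level in 1 sample, replicate 2. Of the 28 above background, 22 had their highest level there, 12 of 15 type I targets and 10 of 13 interferon gamma targets, and the share among all genes above background was 25.3%. Replicate 1 was the highest for 1 member, replicate 3 for 2 and replicate 4 for 3, against 23.0%, 27.5% and 24.1% of all genes. The lowest level lay in replicate 3 for 15 members, in replicate 1 for 8, in replicate 4 for 4 and in replicate 2 for 1, against 34.3%, 19.4%, 22.7% and 23.6% of all genes. Above 0 lay 26 of the 28 differences between replicate 2 and the mean of the others, against 52.3% of all genes. Replicate 2 exceeded the mean of the other 3 samples by over 1 log2 unit for 17 of the 28, against 5.73% of all genes. It exceeded each of the other samples by over 1 log2 unit for 9 of the 28, against 1.29% of all genes. Ifit2 and Gbp3, which lost their background call without replicate 2, are counted in the 22, the 17 and the 9. No member passed a test of spread between samples (limma's prior variance, F test, Benjamini-Hochberg adjusted over probe sets above background). No probe set of any gene passed it, and 724 of 18427 above background had an unadjusted p under 0.05. By their brightest probe set 6 of the 28 members had an unadjusted p under 0.05, of which 3 were type I and 3 gamma targets. Among these type I targets was Xaf1, whose brightest probe set was not above background and so is outside the 18427. In data simulated with the SDs of these arrays, shuffled over probe sets of all levels, the spread test made no calls even for widened probe sets. The shuffle broke any link between SD and level, so the power of the test on the arrays themselves is not known. Its lack of calls here cannot be read as stability of the members.

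**Figure D1:**
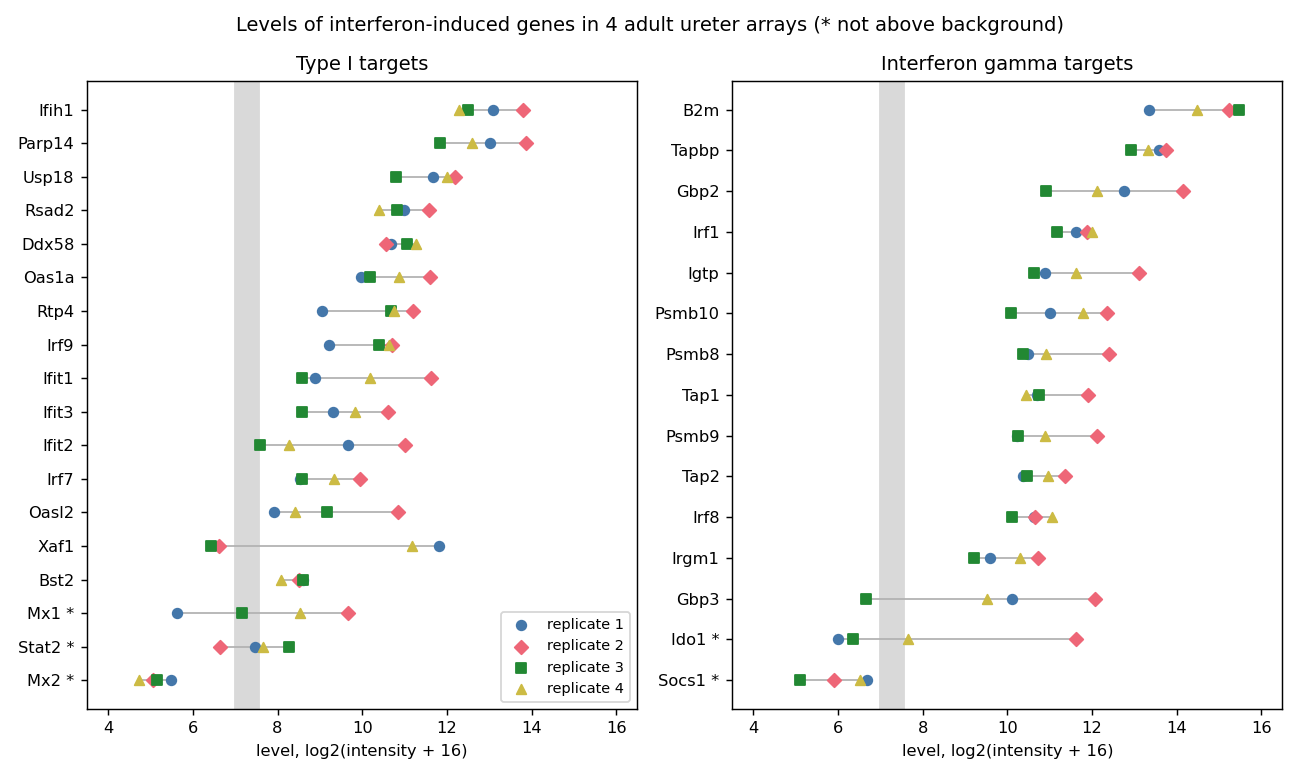
Level (log2(intensity + 16), horizontal axis) of each measured member in replicates 1 to 4, type I targets left and interferon gamma targets right. Each symbol is 1 array, the grey band spans the arrays' background thresholds from 6.991 to 7.566, asterisks mark members not above background, and the order of genes down the page compares nothing between probe sets. The diamonds of replicate 2 lie at the right end for most members, such as Gbp2 at 14.16, while those of Ddx58 and Xaf1 do not.

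The arrays differed in markers of neighbouring tissues and in RNA quality. All 7 smooth muscle markers and 5 of 7 urothelium markers were above background. Levels in replicates 1 to 4 were 4.52, 4.14, 16.39 and 4.23 for the skeletal muscle gene Myh4, and 14.58, 6.91, 11.84 and 7.88 for the liver gene Alb. The seminal vesicle gene Svs4 stood at 11.96, 14.80, 6.55 and 6.63. The 3' to 5' signal ratio of Actb was 19.8 in replicate 2, against 8.231, 5.269 and 4.426 in replicates 1, 3 and 4. That of Gapdh was 34.35, 36.94, 31.62 and 18.77 in replicates 1 to 4, with replicate 4 the lowest. Whether these take part in the interferon pattern was not tested.

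Most ligand genes did not pass the background test, and the receptors as a list did not lead in replicate 2. Of 10 measured interferon ligand genes 1 was above background, Ifnz, at 7.51, 8.83, 8.39 and 7.86 in replicates 1 to 4 (adjusted p = 0.0488, limma). Ifng, the interferon gamma gene, had 4.30, 7.72, 7.90 and 7.37, and Ifnb1, the interferon beta gene, had 4.64, 5.87, 6.61 and 6.36. Ifng lay below the threshold in replicate 1 and a little over it in the other samples, without passing the test of the mean (adjusted p = 1.0, limma).

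All 6 receptor genes were above background. Ifnar1 and Ifnar2, the type I receptor chains, averaged 9.47 ± 0.32 and 11.69 ± 0.50 (SD, n = 4). Ifngr1 and Ifngr2, the interferon gamma receptor chains, averaged 11.77 ± 0.55 and 9.52 ± 0.38. Ifnlr1 and Il10rb, which form the receptor for lambda interferons, averaged 10.73 ± 0.41 and 11.18 ± 0.05. As a list the receptors had a median of 0.01 log2 units in replicate 2 over the mean of the other samples, and they were highest in replicate 3 in 3 of 6 cases.

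As a list the signalling genes showed no lead of replicate 2. All 10 measured kinases, factors and inhibitors of the list were above background, with a median of -0.05 in replicate 2 over the other samples. Jak1, which serves both receptor types, stood at 12.85 in replicate 2, against 11.67 to 12.10 elsewhere. Jak2 averaged 13.40 ± 0.40, Tyk2 10.17 ± 0.13 and Irf3, an activator of interferon genes, 12.32 ± 0.14. Socs3, a feedback inhibitor of cytokine signalling, was low in replicate 3 at 7.75, against 10.07 to 11.17 in the others.

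The interferon regulatory factors and Stat2 among the members differed from each other over the samples. Irf7, which amplifies type I interferon production, had levels of 8.52, 9.94, 8.58 and 9.34 in replicates 1 to 4. Irf9, the DNA-binding part of the type I complex, had 9.21, 10.70, 10.40 and 10.63. Both were highest in replicate 2, Irf7 by 0.60 log2 units over the next sample and Irf9 by 0.07. Irf1, an early target of interferon gamma, had 11.62, 11.88, 11.18 and 12.01. Irf8, a factor of myeloid cells that interferon gamma induces, had 10.62, 10.66, 10.11 and 11.06. Irf1 and Irf8 were highest in replicate 4, and the dimmer Irf8 probe set was highest in replicate 3. Stat2 was not above background (7.47, 6.63, 8.28 and 7.65, adjusted p = 0.546, limma), and replicate 2 was the lowest sample by this probe set. Its dimmer probe set, also not above background, was highest in replicate 2 (5.68, 6.65, 5.90 and 6.43). Stat2 thus has no settled order of samples.

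Response elements were looked for in the 250 bases before each RefSeq gene start (GRCm38.p6), where 28 of the 35 members had an entry. The interferon-stimulated response element was searched as GAAA, any 2 bases and GAAA on either strand, and was present for 7 of 15 type I targets and 6 of 13 interferon gamma targets, against 3.46% of 27025 genes. The letters TTCNNNGAA, the core of the gamma-activated site and the same on both strands, were present for 3 of 15 type I and 4 of 13 gamma targets, against 8.13% of all genes. These 28 members are not the 28 above background. Those with the response element letters include Isg15, whose level was not measured, and Stat2 and Socs1, which were not above background. A match describes letters and is not a site. The 160 bases before the start are shown for Ifit1 (chr19:34640729-34640888, + strand), Ifit3 (chr19:34583369-34583528, + strand) and Oas1a (chr5:120907526-120907685, - strand) as type I targets high in replicate 2. Those of Igtp (chr11:58199396-58199555, + strand), Gbp2 (chr3:142620503-142620662, + strand) and Gbp3 (chr3:142559884-142560043, + strand) stand for the gamma-induced GTPases with the same letters. Irf1 (chr11:53769854-53770013, + strand) is shown as a member with TTCNNNGAA alone that was even over the samples. Capitals mark either set of letters, and adjoining matches overlap in Oas1a and Gbp3.
Ifit1 promoter: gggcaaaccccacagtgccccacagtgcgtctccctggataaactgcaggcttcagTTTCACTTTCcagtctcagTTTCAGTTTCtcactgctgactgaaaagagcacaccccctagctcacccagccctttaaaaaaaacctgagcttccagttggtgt
Ifit3 promoter: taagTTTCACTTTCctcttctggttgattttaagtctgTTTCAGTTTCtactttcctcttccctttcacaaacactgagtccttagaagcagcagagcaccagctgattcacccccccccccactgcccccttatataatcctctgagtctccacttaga
Oas1a promoter: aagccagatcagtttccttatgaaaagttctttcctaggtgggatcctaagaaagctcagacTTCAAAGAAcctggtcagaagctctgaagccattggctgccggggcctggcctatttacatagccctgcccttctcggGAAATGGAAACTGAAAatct
Igtp promoter: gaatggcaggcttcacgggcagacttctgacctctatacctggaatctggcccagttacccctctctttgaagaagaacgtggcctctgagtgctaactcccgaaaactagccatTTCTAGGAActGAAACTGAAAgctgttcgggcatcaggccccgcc
Gbp2 promoter: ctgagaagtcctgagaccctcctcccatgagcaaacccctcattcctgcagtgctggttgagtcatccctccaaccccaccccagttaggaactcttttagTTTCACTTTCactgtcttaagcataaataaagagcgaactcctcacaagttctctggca
Gbp3 promoter: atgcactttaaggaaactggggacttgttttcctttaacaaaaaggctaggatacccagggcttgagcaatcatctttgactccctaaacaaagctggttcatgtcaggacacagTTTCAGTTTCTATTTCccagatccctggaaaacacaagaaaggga
Irf1 promoter: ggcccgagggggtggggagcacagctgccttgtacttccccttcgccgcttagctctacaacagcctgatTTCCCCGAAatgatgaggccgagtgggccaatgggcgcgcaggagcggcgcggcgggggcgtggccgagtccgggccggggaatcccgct

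The Ifit genes, whose products bind foreign RNA and block its translation, shared 1 order at both ends. Ifit1 had 8.89, 11.63, 8.57 and 10.19 in replicates 1 to 4, and its promoter holds the response element letters at 104 and 85 bases before the start. Ifit2 had 9.67, 11.02, 7.58 and 8.26. Ifit3, which has a near-identical copy that its probe set may also read, had 9.31, 10.62, 8.57 and 9.82. All 3 were highest in replicate 2 and lowest in replicate 3. Replicate 2 lay 2.41, 2.52 and 1.39 log2 units over the mean of the other samples for Ifit1, Ifit2 and Ifit3.

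Of the oligoadenylate synthetase family, which senses double-stranded RNA, the members Oas1a and Oasl2 were highest in replicate 2. Oas1a, a family with near-identical copies, had 9.97, 11.61, 10.19 and 10.86, and Oasl2, a synthetase-like gene, had 7.92, 10.84, 9.18 and 8.42. Oas1b, Oas2, Oas3 and Oasl1, which are not members and are named after their values were seen, were not above background. Of these, Oas2, Oas3 and Oasl1 were lowest in replicate 2, at 7.08, 5.41 and 7.19, and Oas1b was highest in replicate 4 at 8.25. Mx1, an antiviral dynamin-like GTPase, had 5.62, 9.66, 7.17 and 8.53, over the threshold in replicates 2 and 4 and below it in replicates 1 and 3 (adjusted p of the mean = 0.532, limma). Mx2 stayed at 4.72 to 5.48, below the threshold in every sample.

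Usp18, Rsad2 and Bst2 were above background. Usp18, which removes Isg15 from proteins and damps the type I receptor, had 11.68, 12.20, 10.79 and 12.00. Rsad2, the antiviral enzyme viperin, had 10.98, 11.59, 10.83 and 10.39 by its brightest probe set, and its other probe sets were not above background. Both were highest in replicate 2 by 0.20 and 0.61 log2 units over the next sample. Bst2, tetherin, which holds budding viruses at the cell surface, was even over the samples at 8.60, 8.50, 8.61 and 8.08. Its promoter window also holds the response element letters.

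The RNA sensors among the members differed in their order of samples. Ifih1, the sensor MDA5 for long double-stranded RNA, had 13.08, 13.79, 12.50 and 12.28. Ddx58, the sensor RIG-I for RNA ends, had 10.68, 10.56, 11.07 and 11.28. Replicate 2 was thus the highest sample for Ifih1 and the lowest for Ddx58, by its brightest probe set. Its second probe set above background was highest in replicate 1 at 9.87. Of 8 other measured sensors and adaptors 4 were above background, Mavs, Tlr3, Tbk1 and Ikbke, with a median of 0.14 in replicate 2 over the other samples.

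Parp14, an ADP-ribosyltransferase, had 13.02, 13.88, 11.83 and 12.60, and Rtp4, a chaperone of receptor trafficking, had 9.04, 11.19, 10.67 and 10.74. Both were highest in replicate 2. Xaf1, a pro-apoptotic gene, gave opposite patterns by its 2 probe sets. The brighter had 11.81, 6.62, 6.43 and 11.18 and was not above background (adjusted p = 0.122, limma), while the dimmer had 7.75, 9.60, 9.21 and 7.85 and was (adjusted p = 0.0169). The brighter set was high in replicates 1 and 4 and below the threshold in replicates 2 and 3, so Xaf1 has no settled pattern here.

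The GTPases that interferon gamma induces in mouse cells to attack intracellular pathogens also shared their highest and lowest samples. Igtp, an immunity-related GTPase also called Irgm3, had 10.90, 13.10, 10.64 and 11.62 in replicates 1 to 4, so replicate 2 was 4.12-fold over the mean of the others. Irgm1, a regulator of that family, had 9.59, 10.73, 9.21 and 10.31. Gbp2, a guanylate-binding protein, had 12.75, 14.16, 10.91 and 12.13 by a probe set that may read several transcripts. Its other probe set had 11.29, 13.10, 9.48 and 10.92, with the same order of samples. Gbp3, whose family has near-identical copies, had 10.12, 12.08, 6.65 and 9.52, and its level in replicate 3 was below the threshold. All 4 GTPases were highest in replicate 2 and lowest in replicate 3. Among all genes above background 34.3% were lowest in replicate 3.

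The immunoproteasome subunits, which replace the constitutive ones to favour peptides that fit MHC class I, were highest in replicate 2. Psmb8 had 10.48, 12.41, 10.36 and 10.92, Psmb9 had 10.24, 12.12, 10.26 and 10.88, and Psmb10 had 11.02, 12.35, 10.08 and 11.78. Replicate 2 lay 1.83, 1.66 and 1.39 log2 units over the mean of the other samples for Psmb8, Psmb9 and Psmb10. The constitutive subunits Psmb5, Psmb6 and Psmb7, which interferon does not induce, differed by -0.13, 0.28 and -0.10. The ranges over all samples were 2.06, 1.88 and 2.27 log2 units for Psmb8, Psmb9 and Psmb10, and 0.74, 0.54 and 0.49 for Psmb5, Psmb6 and Psmb7. Psmb5 and Psmb6 averaged 12.49 and 13.92, while Psmb7 averaged 8.41, nearer the thresholds, where background may narrow its range.

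Peptide transport and loading genes were above background in every case. Tap1 and Tap2, the chains of the peptide transporter, had 11.90 and 11.36 in replicate 2, against 10.43 to 10.76 and 10.37 to 10.97 in the other samples. Tapbp, tapasin, which bridges the transporter to MHC class I, had 13.59, 13.74, 12.92 and 13.33, a step of 0.15 between replicate 2 and the next sample. B2m, the light chain of MHC class I, stood at 13.34, 15.23, 15.48 and 14.48, highest in replicate 3, and its second probe set kept that order. The heavy chain genes H2-K1 and H2-D1, named after their values were seen and open to reading each other's transcripts, were highest in replicate 2 at 16.04 and 15.23.

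**Figure D2:**
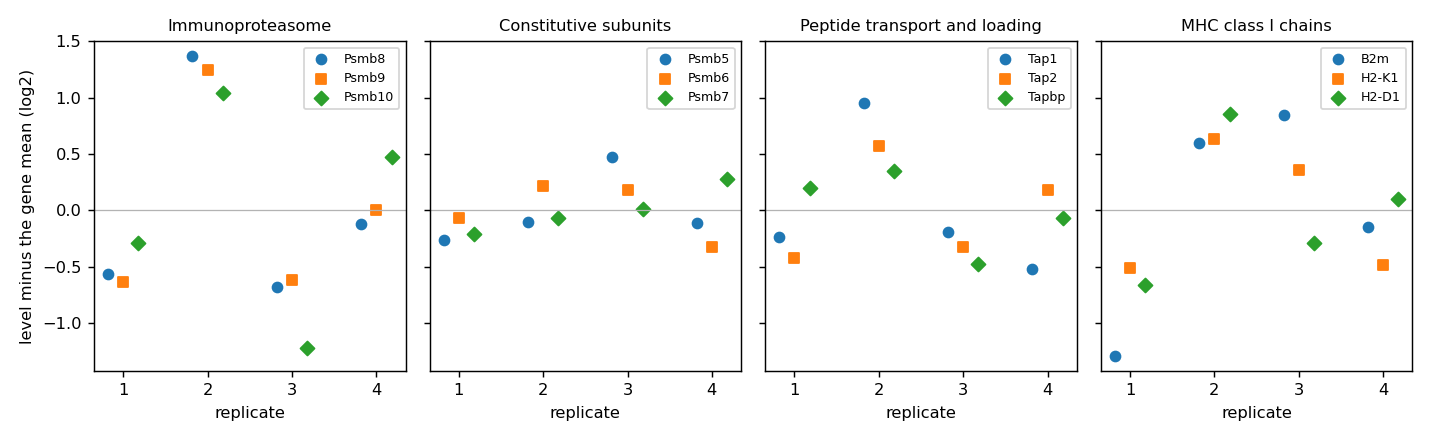
Level minus the gene's own mean over the 4 arrays (log2, vertical axis) by replicate for immunoproteasome subunits, constitutive proteasome subunits, peptide transport and loading genes, and MHC class I chains. Each symbol is 1 gene on 1 array. Psmb8, Psmb9 and Psmb10 stand highest in replicate 2, while Psmb5, Psmb6 and Psmb7 stay close to 0. The values of 1.83, 1.66 and 1.39 in the text are against the mean of the other samples, which is not the axis shown.

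Ido1, which breaks down tryptophan and is a hallmark of interferon gamma exposure, stood at 5.99, 11.62, 6.36 and 7.65 in replicates 1 to 4. Replicates 1 and 3 lay below the threshold, so their levels are bounded only by background, and the mean was not above it (adjusted p = 0.545, limma). Ido1 is also abundant in the mouse epididymis, and the male tract genes Svs2, Svs4 and Svs5 were highest in replicate 2 as well, at 12.89, 14.80 and 14.61. Pbsn, a prostate gene named after its values were seen and the only 1 of 6 male tract markers above background, was highest in replicate 3, at 9.10, 9.42, 15.41 and 8.80 in replicates 1 to 4. Summed intensities of the list were 7209, 69702, 44106 and 680. Whether male tract RNA contributed to the Ido1 level was not tested. Socs1, which interferon gamma induces to close its own signal, was below the threshold in every sample (5.10 to 6.68).

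Replicate 2 had the highest class median for both type I and interferon gamma targets. The median of the type I targets above background was -0.29, 1.12, -0.62 and 0.32 log2 units in replicates 1 to 4 relative to the mean of the other samples. The median of the interferon gamma targets was -0.39, 1.27, -0.82 and 0.01. Over all genes above background it was 0.03, 0.03, -0.05 and 0.05. Replicate 3 had the lowest median in both classes. Without replicate 2 this was no longer shared, with type I medians of -0.44, -0.18 and 0.77 and gamma medians of -0.07, -0.58 and 0.58 in replicates 1, 3 and 4. By the brightest probe set, single genes had replicate 2 values of up to 2.52 in the type I class and from 0.06 to 3.32 in the gamma class. The highest values are those of Ifit2 and Gbp3, which were not above background without replicate 2. The lowest type I values were -3.19 for Xaf1, by a probe set that was not above background, and -0.45 for Ddx58. No test separated the classes, since their members were chosen with these data known. The sign of replicate 4 depended on the setting in both classes, and that of replicate 1 in the type I class only. The type I median of replicate 1 was 0.02 without probe sets of several transcripts. The type I median of replicate 4 was -0.11 without replicate 1 and -0.08 without replicate 3, and the gamma median was -0.12 and -0.30.

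**Figure D3:**
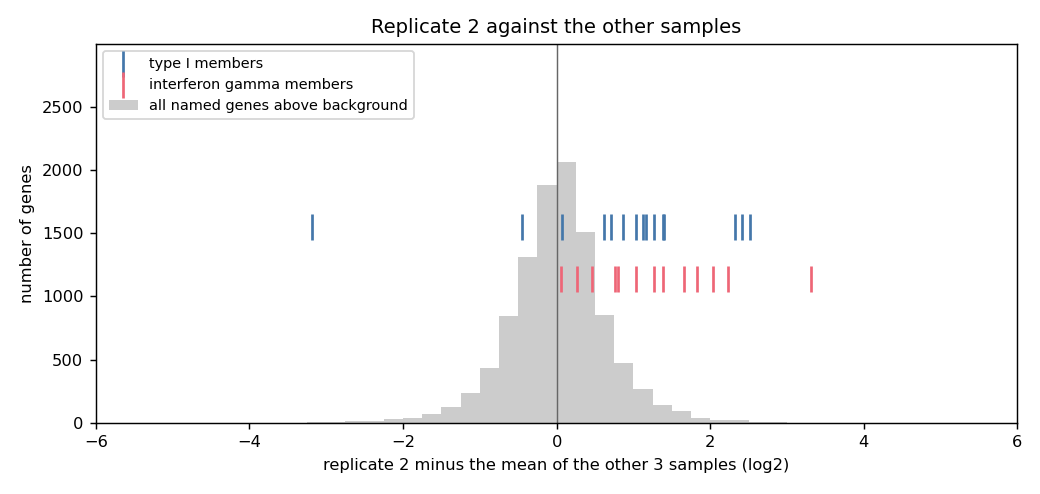
Replicate 2 minus the mean of the other 3 samples (log2, horizontal axis) for all 10526 named genes above background, as grey bars of gene number, with ticks for the 15 type I and 13 interferon gamma members above background placed at arbitrary heights. Of these ticks 26 of 28 lie to the right of 0, where 52.3% of all genes lie, and the exceptions are the type I members Ddx58 and Xaf1. Each gene is plotted by its brightest probe set, which for Xaf1 was not above background, and the Xaf1 probe set that passed lies at 1.32.

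Further interferon-induced genes, listed with the same results known and not members, gave similar values for gamma targets and smaller ones for type I targets. Of 15 measured gamma targets 12 were above background, and 10 of these were highest in replicate 2, with a median of 1.20 over the other samples. The chemokine genes Cxcl9, Cxcl10 and Cxcl11, which draw T cells, had 11.07, 9.52 and 10.80 in replicate 2, against 4.38 to 6.88, 4.48 to 7.16 and 7.97 to 9.92 in the other samples. Of the 3, Cxcl11 was above background by the test of the mean. Of 25 measured type I targets 20 were above background and 15 of these were highest in replicate 2, with a median of 0.57. Among them Ifi27, Ifi35 and Ifitm1 exceeded the next sample in replicate 2 by 0.08, 0.17 and 0.23 log2 units.

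Markers of immune and vessel cells also differed between samples. Macrophage markers were above background in 8 of 12 cases, with summed intensities of 18601, 21933, 13130 and 15603 in replicates 1 to 4 and a median of 0.57 in replicate 2. Of 9 MHC class II and dendritic cell markers 5 were above background, with sums of 10032, 28864, 8267 and 7008 and a median of 2.08. H2-Aa, H2-Ab1 and H2-Eb1, the MHC class II chains that interferon gamma also induces, had 13.68, 11.39 and 12.28 in replicate 2. In replicates 1, 3 and 4 H2-Aa had 12.43, 12.17 and 11.11, and H2-Ab1 had 9.57, 9.43 and 10.93. H2-Eb1 had 10.38, 10.30 and 7.91 in those samples. The lowest sample was replicate 4 for H2-Aa and H2-Eb1 and replicate 3 for H2-Ab1.

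None of 10 T cell and natural killer cell markers was above background by the test of the mean. Over the array's threshold lay 1, 7, 2 and 5 of the 10 in replicates 1 to 4, against 12164, 12469, 12258 and 11998 of 18193 named genes. The threshold was lowest in replicate 2, at 6.991. Sums of the 10 markers were 1011, 4431, 1350 and 1349. Cd3e and Cd3g, parts of the T cell receptor complex, had 8.10 and 10.41 in replicate 2, against 4.74 to 5.84 and 7.18 to 7.93 in the others, while Cd3d was below the threshold in every sample. Cd4 and Prf1, named after their values were seen, were lowest in replicate 2 at 4.94 and 6.61, against 5.48 to 5.65 and 8.30 to 8.72 in the others. None of 5 B and plasma cell markers was above background, with sums of 486, 2675, 988 and 612. Jchain, named after its values were seen, had 11.17 in replicate 2, against 6.21 to 8.57 in the others. The other 4 markers lay at 6.05 to 7.65 in replicate 2.

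Endothelial and smooth muscle markers were also high in replicate 2, with medians of 1.17 and 1.02 and sums of 19982 and 67082, against 4083 to 13959 and 22746 to 47312 in the other samples. Fibroblast markers summed to 20205 in replicate 3 and 77968 to 113735 in the others, with a median of -2.14 in replicate 3, where the members were lowest. The fibroblast median was 0.80 in replicate 2 and 1.00 in replicate 1. Urothelium markers had a median of -0.58 in replicate 2 and 0.96 in replicate 3. In whole tissue, more cells of a type cannot be told apart from more RNA per cell. The part of these cell types in the members' levels was not tested.

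**Figure D4:**
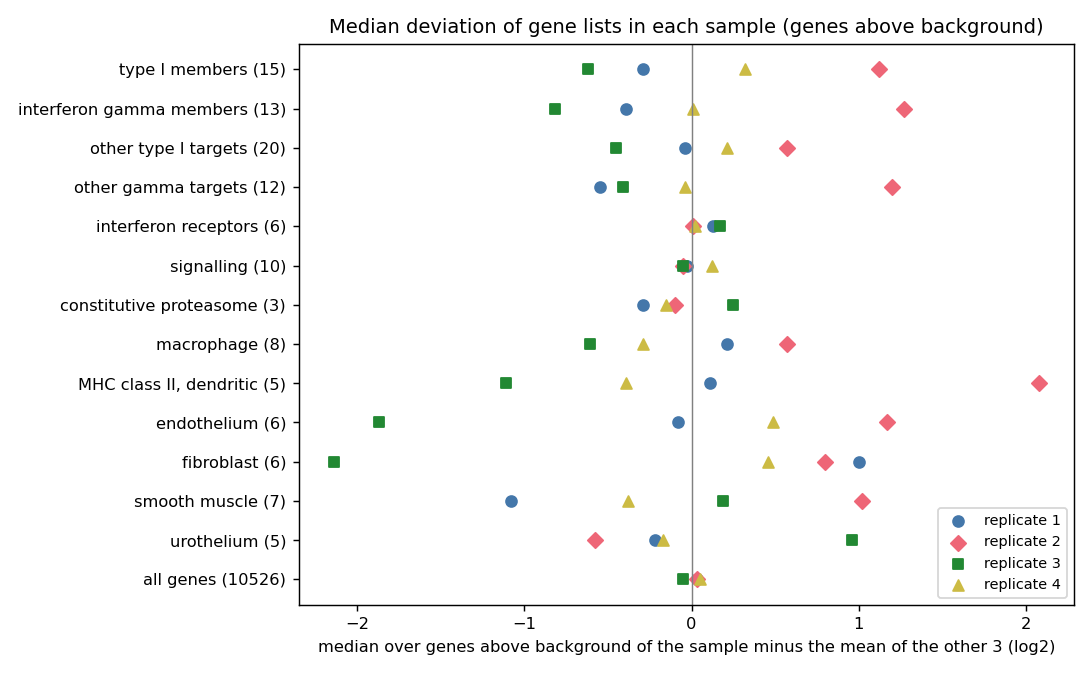
Median over the genes above background of each sample minus the mean of the other 3 (log2, horizontal axis) for 14 gene sets, with the number of genes in brackets. Each symbol is 1 replicate. In replicate 2 the type I and interferon gamma members lie at 1.12 and 1.27, the MHC class II and dendritic set at 2.08, and the receptors, signalling genes and all genes within 0.05 of 0.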

How the data were processed

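Expression was measured in 4 adult ureter samples of 1 group, 1 Affymetrix MOE430 array each. The authors deposited linear intensity values per probe set, and GCOS is named in the submitters' processing notes, with version and algorithm not given in the sources used here. Trimming 2% of probe sets at either end leaves a mean of 1500 for each of the 4 arrays, and these scaled values were taken without further normalization. Precision is limited by having 4 arrays.

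Of 45101 probe sets, 64 controls were left out. The platform annotation gives 34945 of the 45037 others 1 symbol, 932 several and 9160 none. Gene identifiers of 34741 were found in the RefSeq table of GRCm38.p6, which changed 0 symbols. Levels were log2(intensity + 16). A threshold per array came from 86 probe sets of chemosensory receptors (their 95th percentile), of which 0 were called above background. limma 3.58.1 in R 4.3.3 (trended, robust) tested the mean over the samples against the thresholds, one-sided, over all 45037 probe sets, and gave the prior variance of the spread test, with 3 and 4.713 degrees of freedom. Both tests were tested on simulated data. The spread test recovered widened probe sets where the other SDs lay around a common value. It recovered none with the SDs of these arrays, which vary more, shuffled over probe sets of all levels. The shuffle broke any link between SD and level, so the power of the test on the arrays themselves is not known. The spread test cannot be read as showing stability.

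All members could be named by rule, with the pathway genes and the first 3 measured genes of each other list. Members and lists were chosen with earlier results of these data known. The settings also tried were quantile normalization, pseudocounts of 64 and 1, other backgrounds and probe set choices, a prior with no trend, and leaving out each sample.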

Additional observations from a re-analysis of the deposited data

Results flagged for a closer look

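Of 110 members and other interferon pathway genes examined, 3 had a sample that stood apart from the other samples by more than Dixon's critical value allows, and chance flags about 1 gene in 20. Ifng had 4.30 in replicate 1 and 7.37 as its next level, with its mean not above background. Tlr9, a sensor of DNA, had 6.26 in replicate 4 and 7.07 as its next level, also not above background. Ifi27 had 11.97 in replicate 1 and 12.76 as its next level. None of the measured members stood apart in this way.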

How the results depend on the processing

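The count of members above background was 28 as reported and 20 to 28 under the alternatives, with 21 at a background of the median plus 3 median absolute deviations, 24 at the 99th percentile, 25 to 28 with 1 sample left out, and 20 of 23 measured without probe sets of several transcripts. In 18 of 353 single calls a member lost its call, for 7 genes (Ifit1, Ifit2, Irf7, Oasl2, Bst2, Gbp3 and Xaf1). The replicate 2 median ran from 1.02 to 1.34 for type I and 1.14 to 1.33 for interferon gamma targets, and the replicate 3 median from -0.89 to -0.18 and from -1.01 to -0.58, the weaker ends without replicate 2. Without replicate 2 the replicate 4 medians were 0.77 and 0.58. The sign of a class median changed in 5 of 72 cases, all in replicates 1 and 4. Quantile normalization moved the median of all probe sets by 0.1142, 0.1928, -0.2122 and -0.04135 and that of genes above background by under 0.1 in each sample. In alternatives added after the data were seen, 16 of 20 to 24 of 27 members above background were highest in replicate 2. Of all genes above background 25.6% and 34.2% were highest there in the same settings. The 34.2% belongs to the setting without replicate 4, where fewer samples were compared. Replicate 2 minus the others changed sign for Irf8, Bst2 and Xaf1, in 4 of 188 values. Without replicate 3 Irf8 had -0.18, without replicate 4 Bst2 had -0.11, and Xaf1 had 1.07 and 1.11 without replicates 1 and 4. No member passed the spread test under any alternative run, a test that recovered nothing in simulation with the shuffled SDs of these arrays. No paired analysis was possible because all samples form 1 group. Members near their threshold, such as Bst2 and Mx1, are limited by signal over background.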
